A study of Mus musculus with 6 samples.

Results

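The replication-dependent histone genes encode the linker histone H1 and the core histones H2A, H2B, H3 and H4 that package newly copied DNA. They were read here from Affymetrix arrays of mouse embryonic stem cells. Members were the genes whose current or older symbols begin with Hist1h, Hist2h, Hist3h or Hist4h, and the brightest probe set was taken for each gene. Of 70 such genes in the RefSeq gene table, 69 were named in the array annotation. Their brightest probe sets came to 18 distinct probe sets of 35556 on the array, because near-identical genes share probe sets. In all, 58 array rows named at least 1 of these genes, 31 of them with 1 symbol and 27 with several. The 69 genes comprise 6 H1, 19 H2A, 19 H2B, 12 H3 and 13 H4 genes, including 1 H2A and 1 H2B pseudogene. In the mouse genome 55 of them lie in the Hist1 cluster on chromosome 13, 10 in Hist2 on chromosome 3, 3 in Hist3 on chromosome 11 and 1, H4f16 (Hist4h4), on chromosome 6.

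Replication-dependent histone genes are transcribed mainly in S phase, and their mRNAs end in a conserved stem-loop bound by SLBP rather than in a poly(A) tail. NPAT, a cyclin E/CDK2 substrate, drives their transcription at histone locus bodies, and the mRNAs are degraded when DNA synthesis stops. Embryonic stem cells cycle rapidly and spend much of their time in S phase, so histone mRNAs are abundant in them. Genes of 1 core class encode nearly the same protein, so an array often cannot separate their transcripts.

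The cells were RW4, a line of mouse embryonic stem cells, and the 6 arrays fell into 3 groups of 2. The untreated arrays were labelled WT for the induction system and received no agent. The 4OHT arrays carried the label ERT2, a ligand-binding domain of the oestrogen receptor, and received 4-hydroxytamoxifen at 1 µM. The Shld1 arrays carried the label FKBP, the domain that the ligand Shld1 stabilises, and received Shld1 at 1 µM. Whether the RW4 cells of either treated group made a fusion protein is not stated, so system and agent cannot be told apart. All groups were cultured on gelatin with both newborn calf and fetal bovine serum at 10%, leukemia inhibitory factor at 1000 U/mL and 5 added nucleosides or bases at 0.3 mM each, and all RNA had DNase treatment. The labels do not state the length of treatment. Nothing in the labels states that the duplicates were separate cultures, so the p-values rest only on the scatter of these samples, and that scatter may be technical.

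Array medians of the log2 signal ran from 4.20 to 4.32. The SD over all probe sets was 2.29 and 2.33 on the 4OHT arrays and 2.35 and 2.24 on the Shld1 arrays, so 4OHT replicate 1 and Shld1 replicate 2 were the narrower array of their pairs. All 8 embryonic stem cell markers lay above a background level of 3.71, the 95th percentile of 1035 olfactory receptor probe sets. Among them, Pou5f1, Sox2 and Nanog, the core pluripotency factors, had mean signals of 10.37, 10.66 and 10.87. Markers of other cells above that level numbered 5 of 5 for fibroblasts, 4 of 5 for endoderm, 2 of 4 for trophoblast, 1 of 3 for mesoderm and 3 of 4 for neural cells. Their list means over the 6 arrays had a range of 5.58 to 5.87 for fibroblast, 4.66 to 4.89 for endoderm, 3.44 to 3.67 for trophoblast, 3.39 to 3.68 for mesoderm and 5.42 to 5.61 for neural markers. None of these markers passed the test, and their part in any histone value was not tested.

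Histone signal was far above background in every group for most members. Of the 18 probe sets, 16 lay above 3.71, as did 53 of the 58 rows, against 58.4% of all probe sets. The 18 were picked by this same mean signal, so only the 58 rows give an unpicked count. The members that did not reach 3.71 were H1f3, an H1 subtype, and H2bc21 (Hist2h2be), an H2B gene. With the 90th percentile as the level 17 members passed, and with the 99th percentile 14 did. The 4 shared probe sets of the core classes, each of which pools several genes, had means over the arrays of 11.69 for H2A, 11.91 for H2B, 11.97 for H3 and 12.47 for H4. Each probe set has its own probes, so these signals are read against background and not ranked against each other.

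**Figure D1:**
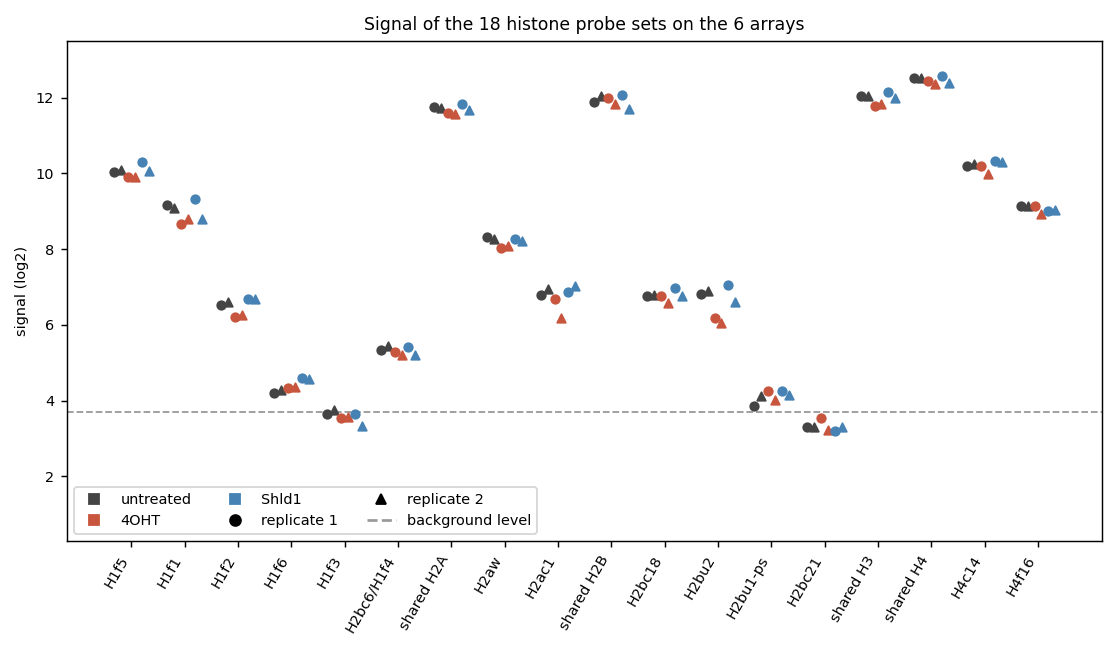
Log2 signal (y axis) of the 18 histone probe sets (x axis, by class) on each of the 6 arrays, coloured by group, with circles for replicate 1 and triangles for replicate 2 and a dashed line at the background level of 3.71. Only H1f3 and H2bc21 have mean signals under the line, and the points of a probe set lie close together beside the range of the axis.

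In 4OHT-treated cells most histone probe sets had slightly lower signal than in untreated cells, and no single one passed the test. Of the 18 members, 15 were lower and 3 higher, and the median difference was -0.15 on the log2 scale against 0.003 over all probe sets. A difference below 0 was seen for 49.5% of all probe sets, and for 53.9% of the 20777 above background. No member reached an adjusted p under 0.05 (limma, Benjamini-Hochberg over all probe sets, smallest member value 0.987). The share called over all probe sets was 0%. At an unadjusted p under 0.05 there were 2 members, H2bu2 and H1f2, both lower, where 4.4% of all probe sets passed and 2.08% did so as lower. Both 4OHT arrays lay below both untreated arrays for 11 of the 18, against 18.9% of all probe sets, and above them for 1, H1f6, against 18.2%. With groups of 2, the smallest p of an exact permutation test is 0.333. Fewer cells in S phase and less histone RNA per cell cannot be told apart in such bulk RNA.

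In Shld1-treated cells the histone probe sets showed no common direction. Against the same untreated arrays, 9 members were higher and 9 lower, with a median of -0.01 beside 0.001 over all probe sets. Of all probe sets 49.7% were below 0, and of the 20777 above background 56.9% were. No member was called (smallest adjusted p 0.991, limma), again beside 0% of all probe sets. Only H1f6 had an unadjusted p under 0.05, where 4.49% of all probe sets passed, 2.23% as higher and 2.26% as lower. Both Shld1 arrays were above both untreated arrays for 4 members and below them for 3, against 16.2% and 16.9% of all probe sets. The 95% interval of the Shld1 difference stayed within 2-fold in either direction for 18 of 18 members and within 1.5-fold for 15. For 4OHT the corresponding counts were 17 and 14, the exception to the 2-fold bound being H2bu2.

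**Figure D2:**
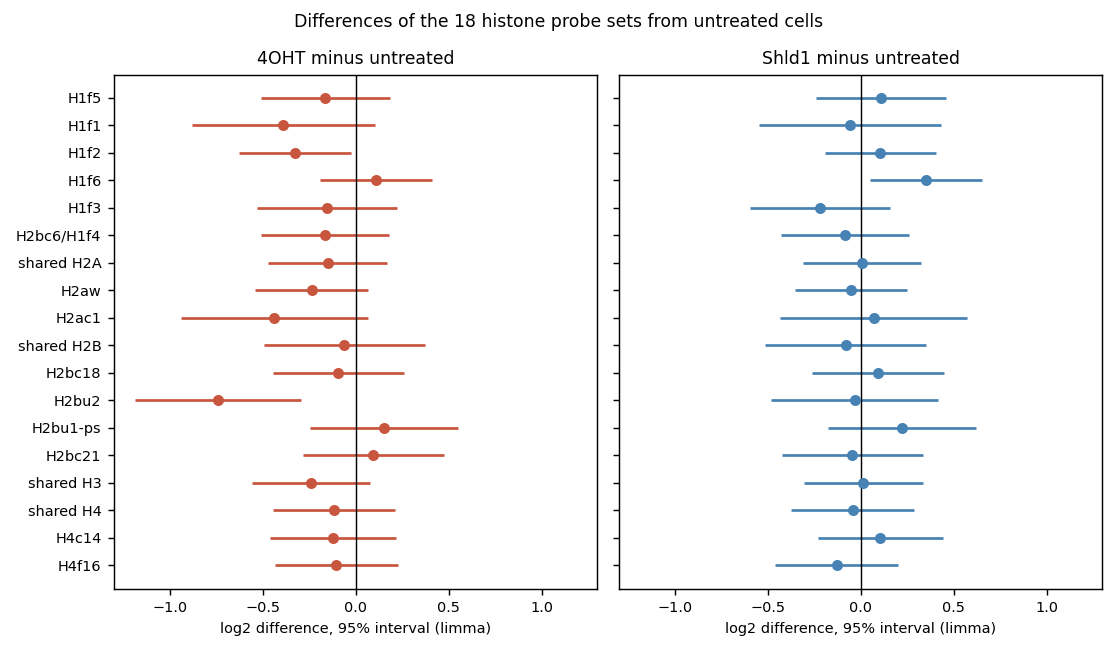
Log2 difference from untreated cells (x axis) of each of the 18 histone probe sets (y axis) for 4OHT (left) and Shld1 (right), with points for the difference of group means and bars for the 95% interval from limma. On the left 15 of 18 points lie below 0 and the intervals of H2bu2 and H1f2 do not reach 0; on the right 9 lie on either side and only the interval of H1f6 excludes 0.

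The 4OHT and Shld1 arrays were also set against each other. The 4OHT signal was lower for 14 of 18 members and higher for 4, with a median of -0.19 beside 0.0004 over all probe sets, of which 49.9% were below 0. Both 4OHT arrays lay below both Shld1 arrays for 11 members, against 15.4% of all probe sets, and above both for none, against 16.1%. No member was called (smallest adjusted p 0.858, limma), and no probe set of the array was (0%). H2bu2, H1f2 and H2ac1 had an unadjusted p under 0.05, all lower, where 5.43% of all probe sets passed, 2.56% as lower and 2.87% as higher. The 3 comparisons share arrays, so their values are given side by side and not as separate evidence. Without Shld1 replicate 1 this median was -0.08.

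Linker histone H1 binds DNA as it enters and leaves the nucleosome, and its subtypes have distinct genes, so 5 of the 6 H1 genes had a row of their own. Of these 5, 4 were lower in 4OHT-treated cells with no overlap of arrays, beside 18.9% of all probe sets, though H1f3 among them was below background. The class median was -0.16, while that of Shld1 was 0.11. By array, the class median relative to untreated was -0.16 on each 4OHT array, and 0.20 and -0.02 on the Shld1 arrays. H1f2 (Hist1h1c), an H1 subtype found in most cell types, read 6.53 and 6.60 on the untreated arrays, 6.22 and 6.26 on the 4OHT arrays and 6.67 on each Shld1 array. The 4OHT arrays were below the other 4, and the Shld1 arrays were the highest. The difference of 4OHT from untreated was -0.33 (SE 0.12, 95% interval -0.63 to -0.03, unadjusted p 0.0376, adjusted p 0.987, limma). From Shld1 it was -0.43 (SE 0.12, adjusted p 0.886, limma).

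The promoter of H1f2 is shown because this gene had the largest statistic of its class between 4OHT and Shld1. It is the 250 bases before the RefSeq start on GRCm38.p6, chr13:23738557-23738806, plus strand. Capitals here and in the promoters that follow mark any of 4 motifs on either strand: the octamer ATTTGCAT known from H2B promoters, the letters CCAAT known as a box of many promoters, the letters TATAA of the TATA box, and the letters GGTCCG from an H4 element.
H1f2: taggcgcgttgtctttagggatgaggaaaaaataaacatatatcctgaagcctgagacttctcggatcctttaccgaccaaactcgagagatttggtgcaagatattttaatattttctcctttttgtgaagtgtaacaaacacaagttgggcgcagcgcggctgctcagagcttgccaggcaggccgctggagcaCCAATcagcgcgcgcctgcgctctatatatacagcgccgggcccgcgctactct
Its single match was a CCAAT whose first base lies 54 bases before the start.

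H1f1 (Hist1h1a), another H1 subtype, read 9.15 and 9.09 untreated, 8.68 and 8.78 with 4OHT, and 9.32 and 8.80 with Shld1. Shld1 replicate 2 was nearly as low as the 4OHT arrays, and the Shld1 arrays spanned the untreated ones. The 4OHT difference of -0.39 (SE 0.20, 95% interval -0.88 to 0.10) did not pass the test, and the Shld1 difference was -0.06 (SE 0.20). H1f5 (Hist1h1b), a replication-dependent linker histone, read 10.04 and 10.10 untreated, 9.91 on each 4OHT array, and 10.30 and 10.05 with Shld1. The 4OHT arrays were again the lowest, with a difference from untreated of -0.16 (SE 0.14), while the Shld1 arrays overlapped the untreated ones.

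H1f6 (Hist1h1t) encodes the testis-specific linker histone and went the other way. It read 4.21 and 4.27 untreated, 4.33 and 4.37 with 4OHT, and 4.60 and 4.57 with Shld1. These signals lie little above background, and the 3 groups did not overlap, with Shld1 highest. The Shld1 difference was 0.35 (SE 0.12, 95% interval 0.05 to 0.65, unadjusted p 0.0302, adjusted p 0.991, limma) and the 4OHT difference 0.11 (SE 0.12). H1f3 (Hist1h1d), below background, ran from 3.34 to 3.76 over the arrays. H1f4 (Hist1h1e) shared its only probe set with H2bc6, an H2B gene, and that probe set ran from 5.19 to 5.45, with a 4OHT difference of -0.16 (SE 0.14) and a Shld1 difference of -0.08 (SE 0.14).

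Histone H2A pairs with H2B in the dimers that flank the H3-H4 tetramer. Of 8 H2A rows, 7 were lower in 4OHT-treated cells and 6 without overlap of arrays (18.9% of all probe sets). The 6 hold repeated readings, as 2 list nearly the same shared H2A genes. They also include the row of H2aw and a second row that it shares with Trim17. H2ac8 (mean 2.85), another of the 6, was below background. The class median was -0.16 against 0.05 for Shld1. The shared H2A probe set 10409220, which lists 20 symbols and serves 17 member genes, read 11.74 and 11.73 untreated, 11.60 and 11.57 with 4OHT, and 11.82 and 11.66 with Shld1. The 4OHT arrays were the lowest and the Shld1 arrays lay on either side of the untreated ones. The 4OHT difference was -0.15 (SE 0.13) and that of Shld1 0.01 (SE 0.13). This probe set also lists H2ax and H2aj, which are histone variants, and H3c4, so it is not a pure reading of replication-dependent H2A.

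H2aw (Hist3h2a), the H2A gene of the Hist3 cluster, read 8.31 and 8.28 untreated, 8.02 and 8.09 with 4OHT, and 8.27 and 8.21 with Shld1. The 4OHT arrays were below the other 4, with a difference from untreated of -0.24 (SE 0.12, 95% interval -0.54 to 0.07), and the Shld1 arrays were just under the untreated pair (-0.05, SE 0.12).

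H2ac1 (Hist1h2aa) encodes a testis-enriched H2A and lies beside H2bc1 (Hist1h2ba), the testis H2B gene. H2ac1 read 6.78 and 6.95 untreated, 6.68 and 6.18 with 4OHT, and 6.86 and 7.02 with Shld1. Replicate 2 of 4OHT stood apart, and replicate 1 was only just below the untreated arrays. The 4OHT difference was -0.44 (SE 0.20, 95% interval -0.94 to 0.07) from untreated and -0.51 (SE 0.20, adjusted p 0.895, limma) from Shld1, and the Shld1 difference from untreated was 0.07 (SE 0.20). Its neighbour H2bc1 had a row of its own near background, from 4.29 to 4.75, with differences of -0.14 for 4OHT and -0.09 for Shld1.

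The H2ac1 promoter, GRCm38.p6 chr13:23934187-23934436 on the plus strand, is shown as that of the H2A member with the largest statistic between 4OHT and Shld1, and it carries the octamer on the strand opposite to the gene.
H2ac1: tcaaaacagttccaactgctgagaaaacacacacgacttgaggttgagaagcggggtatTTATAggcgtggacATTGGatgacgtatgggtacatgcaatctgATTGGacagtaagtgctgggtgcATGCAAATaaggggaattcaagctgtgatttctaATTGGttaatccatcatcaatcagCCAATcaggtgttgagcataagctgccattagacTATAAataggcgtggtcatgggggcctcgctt
The octamer match begins 124 bases before the start, with 4 CCAAT matches around it and a TATAA 32 bases before the start.

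H2B is the class with the most rows, 18 beside the row shared with H1f4, and the class whose rows most often overlapped between untreated and 4OHT arrays. With 4OHT 15 of the 18 were lower but only 3 without overlap of arrays (18.9% of all probe sets). The class median was -0.09, beside -0.08 for Shld1. But 7 of the 18 list nearly the same H2B genes and are repeated readings. Their medians were -0.06 for 4OHT and -0.09 for Shld1, and their 4OHT and untreated arrays all overlapped. The 11 rows of 1 symbol had medians of -0.14 and -0.03 and held the 3 rows without overlap. The shared H2B probe set 10403980, which lists 15 H2B genes (H4bc24, despite its name, is Hist1h2br), read 11.88 and 12.04 untreated, 11.98 and 11.82 with 4OHT, and 12.06 and 11.69 with Shld1. All 3 groups overlapped, and the Shld1 replicates were the farthest apart. Its differences were -0.06 (SE 0.17) for 4OHT and -0.08 (SE 0.17) for Shld1. The H2B gene with the brightest row of its own, H2bc14 (mean 11.60), had a 4OHT difference of -0.15 and a Shld1 difference of 0.05. The class medians by array show the same spread. Relative to the untreated mean they were -0.08 and 0.08 for the untreated arrays, -0.003 and -0.15 for 4OHT, and 0.10 and -0.25 for Shld1.

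H2bu2 (Hist3h2ba), the H2B gene of the Hist3 cluster, had the largest difference of any member. It read 6.81 and 6.90 untreated, 6.18 and 6.05 with 4OHT, and 7.04 and 6.60 with Shld1. The 4OHT arrays were the lowest by a clear gap, and the Shld1 arrays lay on either side of the untreated pair. The 4OHT difference from untreated was -0.74, which is 1.67-fold lower (SE 0.18, 95% interval -1.19 to -0.29, unadjusted p 0.00709, adjusted p 0.987, limma). From Shld1 it was -0.71 (SE 0.18, adjusted p 0.858, limma), and the Shld1 difference from untreated was -0.03 (SE 0.18). The next gene along the chromosome is the pseudogene H2bu1-ps, whose probe set, from 3.85 to 4.25, had a 4OHT difference of 0.15 (SE 0.16), and Trim17 lies between it and H2aw.

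Its promoter, chr11:58948661-58948910 on the plus strand of GRCm38.p6, is shown because it belongs to the member with the largest difference. It has 4 CCAAT matches and 2 TATAA matches and no octamer of these letters.
H2bu2: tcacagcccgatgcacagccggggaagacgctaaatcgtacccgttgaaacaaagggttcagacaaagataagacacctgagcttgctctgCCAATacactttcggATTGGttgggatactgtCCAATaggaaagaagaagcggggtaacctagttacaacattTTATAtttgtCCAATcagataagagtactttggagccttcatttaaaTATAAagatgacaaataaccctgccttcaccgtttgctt
The TATAA on the gene's own strand begins 39 bases before the start.

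The remaining H2B members were H2bc18 (Hist2h2bb) and H2bc21, both of the Hist2 cluster. H2bc18 read 6.75 and 6.79 untreated, 6.76 and 6.59 with 4OHT, and 6.96 and 6.77 with Shld1. The groups overlapped in both comparisons with untreated cells, with differences of -0.10 (SE 0.14) for 4OHT and 0.09 (SE 0.14) for Shld1. H2bc21, below background, ran from 3.20 to 3.55.

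H3 and H4 form the tetramer at the core of the nucleosome, and all 13 H3 rows were lower with 4OHT. Of these, 11 had no overlap of arrays (18.9% of all probe sets were lower without overlap), but 10 of the 11 list the same 12 genes and count as little more than 1 reading. The class median was -0.23 against 0.01 for Shld1. The 12 H3 genes share probe set 10404065, which read 12.04 and 12.05 untreated, 11.78 and 11.84 with 4OHT, and 12.14 and 11.98 with Shld1. The untreated arrays nearly coincided, the 4OHT arrays were the lowest and the Shld1 arrays lay on either side of untreated. The 4OHT difference was -0.24, or 1.18-fold lower (SE 0.13, 95% interval -0.56 to 0.08, adjusted p 0.987, limma), and that of Shld1 was 0.01 (SE 0.13).

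The 10 rows that list these 12 H3 symbols ran from -0.27 to -0.22 with 4OHT and from -0.004 to 0.06 with Shld1. They list the same genes and so are not independent readings. Only 3 H3 genes had a row of their own. H3c4 was above background, with a 4OHT difference of -0.07, and H3c7 and H3c15 were below it. By array, the H3 class median relative to untreated was -0.27 and -0.21 for 4OHT and 0.09 and -0.06 for Shld1.

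H4 differed less. Of 13 H4 rows, 10 were lower with 4OHT and 7 of those without overlap (18.9% of all probe sets), 5 of the 7 being rows of the same 11 genes. The class median was -0.11 against -0.03 for Shld1. The shared H4 probe set 10404067, which lists 11 genes, read 12.52 on each untreated array, 12.44 and 12.36 with 4OHT, and 12.57 and 12.38 with Shld1. The 4OHT arrays were lower than the untreated ones but overlapped the Shld1 pair. Its differences were -0.12 (SE 0.13) for 4OHT and -0.04 (SE 0.13) for Shld1. The 5 rows with these symbols ran from -0.12 to -0.11 for 4OHT and from -0.04 to -0.03 for Shld1, and 2 pairs of rows on the array, 1 of H4 and 1 of H2B, held identical values on all 6 arrays.

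Other H4 genes did not share 1 direction. H4c14 (Hist2h4), of the Hist2 cluster, read 10.18 and 10.24 untreated, 10.19 and 9.98 with 4OHT, and 10.32 and 10.30 with Shld1, so the Shld1 arrays were the highest and the 4OHT arrays overlapped the untreated ones. H4f16 read 9.14 on each untreated array, 9.14 and 8.93 with 4OHT, and 9.00 and 9.02 with Shld1. Its 4OHT replicates lay on either side of the Shld1 pair. The H4 genes whose own rows were not the brightest included H4c4, at -0.18 with 4OHT and 0.04 with Shld1, and H4c3, at 0.24 and 0.22. No H4 row passed the test.

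The H4f16 promoter, chr6:136804432-136804681 on the minus strand of GRCm38.p6, is shown as that of the H4 member chosen by the same statistic among those with a window in the table.
H4f16: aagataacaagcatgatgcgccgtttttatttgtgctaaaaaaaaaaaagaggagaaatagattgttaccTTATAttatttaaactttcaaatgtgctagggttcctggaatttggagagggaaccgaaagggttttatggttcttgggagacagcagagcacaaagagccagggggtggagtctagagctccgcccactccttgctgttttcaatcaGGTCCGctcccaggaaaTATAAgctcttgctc
Here GGTCCG begins 32 bases and TATAA 15 bases before the start, and no CCAAT was found.

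**Figure D3:**
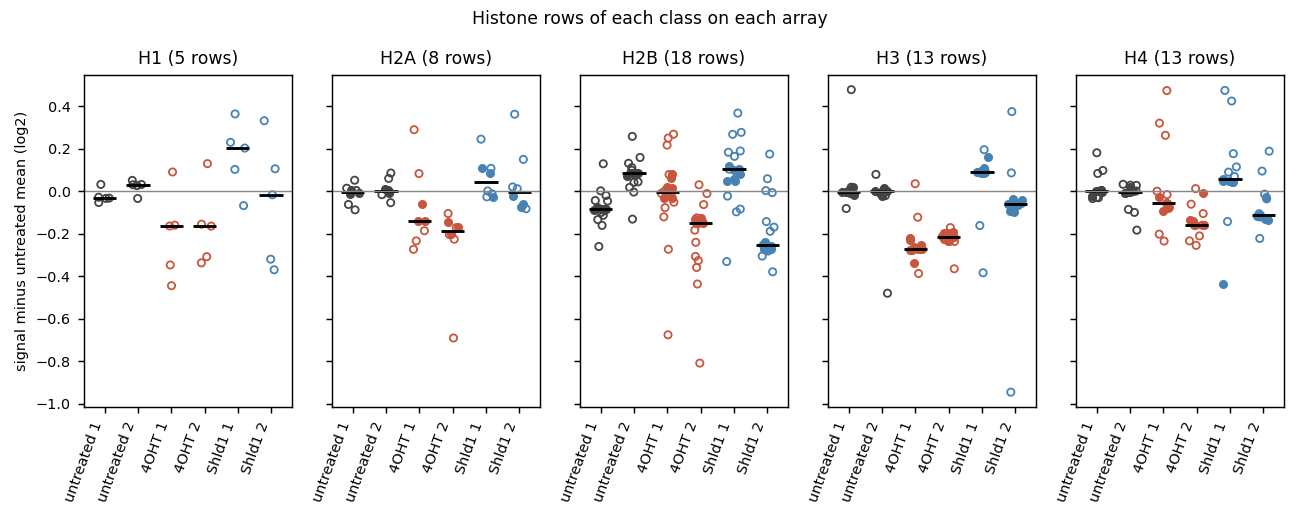
Signal of every histone row minus the mean of the untreated arrays (y axis, log2) on each of the 6 arrays (x axis), by class, with open circles for rows of 1 symbol, filled circles for rows of several and a black bar at the class median; the row shared by H2bc6 and H1f4 is not drawn. The H3 bars lie at -0.27 and -0.21 on the 4OHT arrays, while the H2B bars reach -0.25 on Shld1 replicate 2, below either 4OHT array.

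As a description of the sequence, the octamer, CCAAT and GGTCCG were uneven between classes, while TATAA was found in every class. Windows of 300 bases (250 before to 50 after the start) were held for 62 of the 69 genes, as 63 windows, of which 20 overlap a window of another member. The octamer was in 7 of 18 H2A windows and 7 of 17 H2B windows (38.9% and 41.2%), and in none of the H1, H3 or H4 windows, against 1.74% of all 32851 windows. CCAAT was in every H1, H2A, H2B and H3 window and in 25.0% of the 12 H4 windows, against 37.4% of all windows. GGTCCG was in 11 of 12 H4 windows, or 91.7%, against 8.25% of all windows. TATAA was in 79.4% of the histone windows and 24.9% of all. A match is a run of letters and not a shown binding site, and no motif was set against the differences between groups.

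Bright probe sets as a whole did not share the histone direction with 4OHT. Of 688 probe sets with mean signal above 11, 350 were lower with 4OHT and the median was -0.002. The 26 histone rows among them were all lower, with a median of -0.15, and 19 of these had no overlap of arrays, compared with 204 of the 688. All of the 26 but H2bc14 and H4c4 are repeated readings of the 4 shared gene lists, so they are not separate rows in the way the 688 are. Of the 18 members only the 4 shared core probe sets exceed 11, so the dimmer members are outside these counts. For Shld1, 14 of the 26 histone rows and 405 of the 688 were lower. Over all 58 rows, 50 were lower with 4OHT (median -0.14, 32 without overlap, against 18.9% of all probe sets). With Shld1 30 were lower (median -0.002, 6 without overlap, against 16.9% of all probe sets). Of the 40 rows that were not the brightest of a gene, 35 were lower with 4OHT. But 22 of the 40 list several genes, most of them the same shared lists, so these counts hold repeated readings too.

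Replicates differed by amounts of the same order. The median absolute difference between the replicates of a group over the 18 members was 0.06 untreated, 0.09 with 4OHT and 0.16 with Shld1. By array, the median of the 18 relative to the untreated mean was -0.03 and 0.03 for the untreated arrays, -0.13 and -0.19 for 4OHT, and 0.10 and -0.07 for Shld1. The 2 narrower arrays, 4OHT replicate 1 and Shld1 replicate 2, thus gave -0.13 and -0.07, and the wider array of each pair -0.19 and 0.10. Without both narrower arrays the 4OHT median was -0.19, with 16 of 18 members lower, and the Shld1 median was 0.10, with 5 of 18 lower. The Shld1 median was 0.10 without Shld1 replicate 2 alone and -0.07 without replicate 1.

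Replication-independent histone variants, most of which are made throughout the cell cycle from polyadenylated mRNAs, replace canonical histones. Most listed variant genes were lower with 4OHT. Of 11 listed, 9 had a probe set of their own, and 8 were lower and 1 higher with 4OHT (median -0.19, 6 lower without overlap, against 18.9% of all probe sets). Among the 8, H2az1, the brightest listed variant (mean 11.99), was flat at -0.0002 with overlapping arrays. None was called in any of the 3 comparisons. The replicates were uneven, with list medians of -0.25 and -0.09 relative to untreated on the 4OHT arrays. With Shld1 5 were lower and 4 higher (median -0.01). H1f10, a divergent linker histone, read 7.36 and 7.34 untreated, 7.05 and 7.26 with 4OHT, and 7.60 and 7.78 with Shld1. Its 3 groups did not overlap, and the difference between 4OHT and Shld1 was -0.53 (SE 0.14, unadjusted p 0.0109, adjusted p 0.882, limma). Macroh2a1, an H2A variant with a macro domain, and H2aj, an H2A variant, had 4OHT differences of -0.31 and -0.26. H2ax, which is phosphorylated at DNA breaks, differed by -0.10 with 4OHT and 0.10 with Shld1. The H3f3a probe set of 1 symbol, counted as lower with 4OHT at -0.05, was below background.

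Factors that make and process histone mRNA showed lower medians with either agent. All 17 measured genes lay above background, where 53.9% of probe sets were lower with 4OHT and 56.9% with Shld1. With 4OHT 11 of 17 measured genes were lower and 6 higher (median -0.15), and with Shld1 12 and 5 (median -0.10), with 6 lower without overlap in each comparison, against 18.9% and 16.9% of all probe sets, and none called. Cpsf3, the nuclease that cuts histone pre-mRNA, differed by -0.26 and -0.17. Upf1, a helicase that takes part in histone mRNA decay, differed by -0.20 and -0.16, and Npat by -0.15 and -0.23. Slbp, named here after its values were seen, differed by 0.02 and 0.09. This list was not even between the 4OHT replicates, at -0.19 and 0.02 relative to untreated, whereas the 18 histone probe sets were at -0.13 and -0.19.

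Histone chaperones, which carry histones to DNA, and S phase genes had medians nearer 0. Of 15 chaperones, 11 were lower with 4OHT (median -0.06) and 12 with Shld1 (median -0.05). Hira, a chaperone of variant H3, differed by -0.06 and -0.27, Atrx, which deposits variant H3 together with Daxx, by 0.07 and -0.15, and Hat1, which acetylates new H4, by -0.17 and -0.13. Of 21 S phase genes, 13 were lower with 4OHT (median -0.06) and 12 with Shld1 (median -0.02). All measured genes of both lists lay above background, where 53.9% of probe sets were lower with 4OHT and 56.9% with Shld1. On the 4OHT arrays, relative to untreated, the chaperone median was -0.12 and -0.01 and the S phase median -0.13 and 0.02, so the latter changed sign between replicates. Gins1, part of the replicative helicase, differed by -0.36 and -0.03, Cdc6, a licensing factor, by -0.01 and 0.26, and the primase Prim1 by -0.17 and 0.03. None of these genes was called in any of the 3 comparisons.

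**Figure D4:**
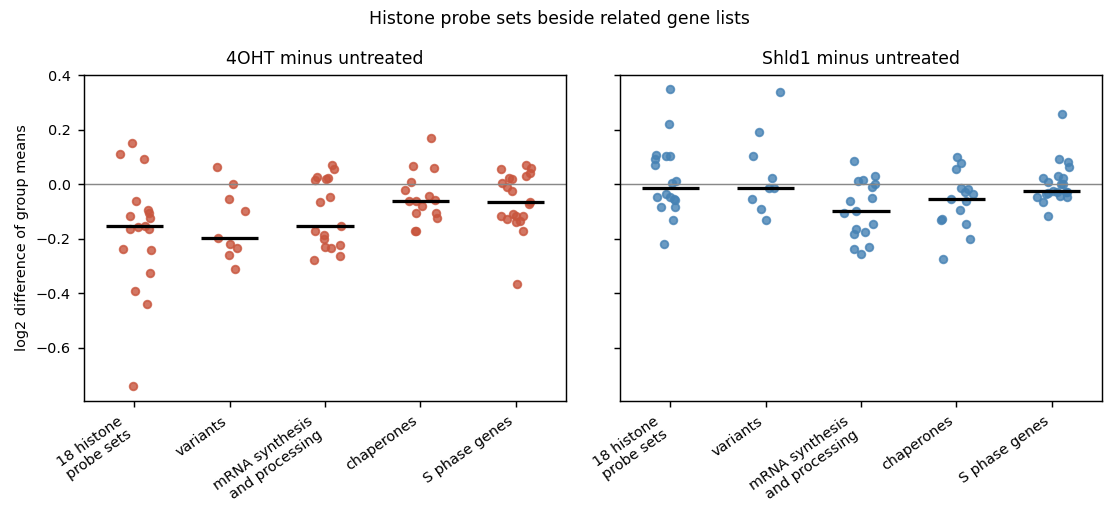
Log2 difference from untreated cells (y axis) of the 18 histone probe sets and of the genes of 4 related lists (x axis), for 4OHT (left) and Shld1 (right), with 1 point per probe set and a bar at the median. With 4OHT the medians are -0.15 for the histone probe sets, -0.19 for the variants and -0.06 for the S phase genes, and with Shld1 those of the histones and variants are -0.01.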

How the data were processed

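Total RNA of the 6 samples was labelled with biotin and hybridised to Affymetrix arrays, per the labels. The deposited values of the series table are on a log2 scale, judged from their range, and the sources used here do not state how the authors corrected, summarised or normalized them. Per the submitters' processing notes, limma 3.14 was among the tools, with no role stated. Gene names came from the platform annotation and were matched by Entrez ID to the RefSeq table of GRCm38.p6, which also gave the promoter sequences. Of 35556 probe sets, 21789 had 1 symbol, 1621 several and 12146 none.

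The values were used as deposited. A mean per group was fitted over all 6 arrays with limma 3.58.1 in R 4.3.3 (lmFit, eBayes, 3 residual degrees of freedom), two-sided, with Benjamini-Hochberg adjustment over all probe sets and a threshold of 0.05. Median precision was an SE of 0.174 and a 95% half-width of 0.431 (log2), which the number of arrays limits. The fit was tested on simulated data. Samples were grouped by the labels.

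The named members were, per comparison, the 5 probe sets with the largest positive and the 5 with the largest negative statistic. To these were added, per class, the brightest and dimmest of the 18 probe sets with 1 symbol, and the testis genes H1f6 and H2bc1. No H3 probe set among the 18 had 1 symbol. Of each related list, up to 3 genes with the largest statistic were named. H2ax, H4c3, H3c7 and other rows outside this rule were named after their values were seen. The members, lists and tests were chosen with earlier results of these data known. Alternatives covered moderation, normalization, filters, probe set choice, array weights, a replicate block and left-out arrays. Genome sequence was used only as the promoter windows of the RefSeq table, and protein sequences were not used here.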

Additional observations from a re-analysis of the deposited data

How the results depend on the processing

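Over 19 alternatives and 3 comparisons, limma called none of the histone probe sets, as in the reported fit. With 4OHT against untreated the median ranged from -0.11 (without untreated replicate 2, and with centring on the 75th percentile, which moved the median of all probe sets by 0.05) to -0.19 (without 4OHT replicate 1), and 13 to 16 of 18 members were lower, or 14 of 16 without the dimmest 40% of probe sets and 23 of 31 with probe sets of 1 symbol only. The 4OHT minus Shld1 median ranged from -0.24 to -0.0833 over the fits that left out 1 array, with the -0.0833 coming from leaving out Shld1 replicate 1. The Shld1 minus untreated median ranged from -0.0690 to 0.0969 over those fits and was 0.0969 without both narrower arrays.

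Counts of all probe sets at an unadjusted p under 0.05 went from 1596 to 4141 (Shld1 minus untreated) and from 1932 to 3811 (4OHT minus Shld1) without Shld1 replicate 1, and from 1566 to 2412 (4OHT minus untreated) without 4OHT replicate 2. In the order 4OHT minus untreated, Shld1 minus untreated and 4OHT minus Shld1, they were 995, 866 and 1117 of the 19938 probe sets of 1 symbol, 1064, 952 and 1322 of 21333 without the dimmest, and 1153, 993 and 1322 among annotated probe sets, where fewer were tested. With annotated probe sets only, an alternative chosen after seeing the data, no call was made.

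The labels number the duplicates alike in each group. Deviations of same-numbered arrays correlated at 0.02, -0.06 and -0.10, so the numbers were not taken as pairs. With the replicate block the medians stayed at -0.15, -0.01 and -0.19, with 0 members called and 1337, 1475 and 1771 probe sets at an unadjusted p under 0.05.

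Under quantile normalization, the sign turned for Shld1 minus untreated H2bu2 0.0104, H2aw 0.00866 and for 4OHT minus Shld1 H4f16 -0.0104. With centring on the 75th percentile, the sign turned for Shld1 minus untreated H2bu2 0.000177. Under cyclic loess, the sign turned for Shld1 minus untreated H2bu2 0.00874, H2aw 0.00401 and for 4OHT minus Shld1 probe set 10403980 -0.00836. With the mean of all probe sets of a gene, the sign turned for Shld1 minus untreated probe set 10404065 -0.0138, probe set 10404067 0.0106 and for 4OHT minus Shld1 probe set 10403980 -0.0293. Without both narrower arrays, the sign turned for 4OHT minus untreated H2bc21 -0.0617 and for Shld1 minus untreated H2bu2 0.18, probe set 10403980 0.10, probe set 10404067 0.0468, H1f1 0.20, H2ac1 -0.0113, probe set 10408212 0.0162 and for 4OHT minus Shld1 probe set 10403980 -0.24, H1f3 -0.0875, H4f16 -0.0677. Among the fits that left out 1 array, the value changed sign for these members, given as their lowest and highest values. For Shld1 minus untreated they were H2ac1 -0.0168 to 0.16, H2bu2 -0.25 to 0.18, probe set 10404065 -0.0628 to 0.0915, H1f5 -0.0157 to 0.23, probe set 10409220 -0.0753 to 0.0862, H2bc21 -0.10 to 0.00395, H2bc18 -0.0056 to 0.19, probe set 10403980 -0.27 to 0.10, probe set 10404067 -0.14 to 0.0468, H1f1 -0.32 to 0.20, probe set 10408212 -0.18 to 0.0162. For 4OHT minus Shld1 they were probe set 10403980 -0.16 to 0.20, H2bc21 -0.0158 to 0.30, H4f16 -0.0785 to 0.13, H2bu1-ps -0.19 to 0.0471, probe set 10404067 -0.16 to 0.0193, probe set 10408212 -0.18 to 0.0198, H1f3 -0.0898 to 0.21. For 4OHT minus untreated they were probe set 10403980 -0.14 to 0.0188, H2bc21 -0.0617 to 0.25, H4f16 -0.21 to 0.00101. The cause of these changes of sign was not tested. With 2 arrays per group, a difference under 0.431, the median half-width of the 95% interval, could not be told from 0 for a typical probe set.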
